A study of Mus musculus with 4 samples.

Results

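In the knockout library of this mouse embryonic pancreas study, 50 of 561 cells kept were duct-like epithelial cells rich in Cym, the gene of chymosin, an aspartic protease best known from the stomach of suckling mammals. They were 8.91% of the library (exact binomial 95% interval 6.69 to 11.6), 25.8% of its 194 duct-like cells and 16.1% of its 311 epithelial cells, and the whole series held 1486 kept cells. A cell was a member when it had at least 500 genes, at most 10% mitochondrial UMIs and, in CPM (UMIs scaled to 1000000 per cell), Cym at 500 or more, Epcam (an epithelial adhesion molecule) at 200 or more, Cpa1 (carboxypeptidase A1, an acinar enzyme) under 2500 and Chga, Chgb, Neurog3 and Fev (endocrine genes) together under 500. These measured values chose the cells, so the levels of these genes are descriptions, and so is every other gene of the same cells. No difference below was tested.

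Single cells were profiled on the 10x platform at embryonic day 15.5. The knockout embryos were PdxCre;OGTflox/flox;CAG GFP, in which Cre under a Pdx1 promoter deletes floxed Ogt and turns on a GFP mark in the pancreatic lineage, and their cells were sorted on GFP. The control embryos, labelled WT, were OGTflox/flox without that Cre and were sorted on E-cadherin per the series design, although the sample protocol names GFP for all samples. Both groups carried the floxed allele. Each genotype is 1 library sequenced in repeated runs, the number of embryos is not given in the sources used here, and genotype, sort and library cannot be told apart. All intervals are 95% counting intervals and leave out variation among cells and embryos.

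The trunk of the embryonic pancreas is the central epithelium that gives rise to ducts and to endocrine cells, while acinar cells form at the tips. Trunk cells carry the transcription factors Sox9 and Nkx6-1, the secreted phosphoprotein Spp1 and simple keratins such as Krt18. Ogt encodes the enzyme that places O-GlcNAc, a single sugar, on nuclear and cytosolic proteins. Alpha-1-antitrypsin (the mouse Serpina1 genes), alpha-fetoprotein (Afp), transthyretin (Ttr) and secreted phosphoprotein 24 (Spp2) are plasma proteins made mainly by liver, and the metallothioneins Mt1 and Mt2 bind zinc and copper.

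Cym (ENSMUSG00000046213) lies on the minus strand at chr3:107211293-107221732 and Serpina1b (ENSMUSG00000071178) on the minus strand at chr12:103728156-103830373 (GRCm38, GENCODE M21), and both are protein-coding. Their upstream sequences are shown because Cym defines these cells and Serpina1b had a UMI in all of them. Each run is the 250 bases before the RefSeq start (GRCm38.p6), at chr3:107221733-107221982 and chr12:103738190-103738439, read 5′ to 3′ on the gene's strand. Neither window overlaps an exon of GENCODE M21, and the Serpina1b window lies within the span that GENCODE gives the gene. Capitals mark matches to any of 4 motifs searched on both strands.
Cym: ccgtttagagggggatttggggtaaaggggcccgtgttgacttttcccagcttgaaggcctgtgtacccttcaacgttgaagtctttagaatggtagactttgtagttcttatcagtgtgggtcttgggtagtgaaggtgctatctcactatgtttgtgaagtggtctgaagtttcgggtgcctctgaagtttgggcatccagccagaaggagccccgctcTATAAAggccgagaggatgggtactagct
Serpina1b: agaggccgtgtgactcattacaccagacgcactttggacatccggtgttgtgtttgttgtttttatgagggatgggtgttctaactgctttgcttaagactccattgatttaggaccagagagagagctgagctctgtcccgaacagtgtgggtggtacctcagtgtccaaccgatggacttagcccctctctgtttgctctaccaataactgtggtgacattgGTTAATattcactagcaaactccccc
The TATA box was searched as TATAAA, and the Cym window held 1 match, at positions -29 to -24 from the start, while the Serpina1b window held 0. The HNF1 half-site was searched as GTTAAT, and the Serpina1b window held 1 match, at -26 to -21, while the Cym window held 0. The core of the metal response element was searched as TGCNCNC and had 0 matches in both windows. The GATA site was searched as AGATAA and also had 0 matches in both. In windows of the same length before all 32851 RefSeq starts in the table, the shares with a match were 12.4% for the TATA box, 6.43% for the HNF1 half-site, 44.4% for the metal response core and 9.99% for the GATA site. The 2 marked matches do not overlap another motif of the search. A match describes letters only, and no binding was measured.

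The members were deeply sequenced cells. They had 6281 to 40905 UMIs (median 21095) and a median of 5099 genes, against medians of 18970 UMIs and 4619 genes in the 261 other epithelial cells. Their median mitochondrial share was 4.31%, against 3.19%. Scrublet marked 1 of the 50 as a doublet and 8 of the 561 cells in all. No barcode was shared between the libraries.

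Cym per member ran from 566 to 13361 CPM with a median of 1577. The 5 lowest members had 566, 573, 579, 593 and 625 CPM, and the 5 highest cells under the limit that met the other conditions had 488, 456, 422, 417 and 415. These cells close to the limit rest on few transcripts, 9 to 15 Cym UMIs in the members and 3 to 12 outside. In all, 16 members were under 1000 CPM, 34 at or above it and 5 at or above 5000. The 5 richest cells supplied 32.2% of the members' Cym UMIs. The members therefore form a continuous range above the limit, with a long upper tail.

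Cym was concentrated in these cells without being limited to them. Members held 62.7% of all Cym UMIs of the knockout library. Of 63 knockout cells at 500 CPM or more, 13 were outside the gate, 8 for Cpa1, 3 for Epcam and 2 for the endocrine sum. A Cym UMI was present in 478 of 561 knockout cells. The level in immune-gated knockout cells, which should lack the gene, was 136 CPM and in stromal-gated cells 120 CPM, and it serves as the background from RNA free in the suspension. After each cell was thinned to 5000 UMIs, a Cym UMI was found in 50 of 50 members, 45.5% of 66 immune-gated cells and 44.8% of 154 stromal-gated cells. Spp1-high Cym-low cells stood at 50.8% of 65. The Cym limit of 500 CPM bears on this share and on that of the members, so neither is evidence apart from the rule. The highest immune-gated cell had 378 CPM, which is under the limit of the rule.

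**Figure D1:**
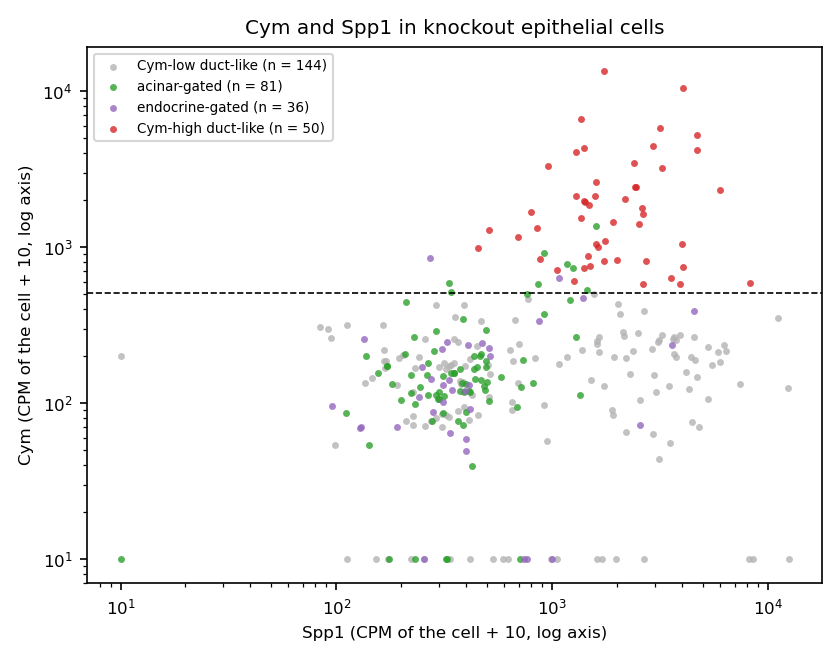
Each point is 1 epithelial knockout cell, with Spp1 on the horizontal and Cym on the vertical axis (CPM of the cell plus 10, log axes), and the dashed line marks the Cym limit of 500 CPM. The 50 Cym-high cells (red) run from 566 to 13361 CPM of Cym and mostly share the Spp1 range of the right-hand group of Cym-low cells, while most acinar-gated and endocrine-gated cells have less Spp1.

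In the control library no cell met the rule. Among its 66 duct-like cells 0 did (exact binomial interval 0 to 5.44%), and among its 925 kept cells 0 did (0 to 0.398%). Of the 66 duct-like cells, 52 carried 1000 CPM or more of immune gate genes and 28 were Spp1-high cells, defined below. The limit of 5.44% therefore holds for a mixed class. That library had 10 Cym UMIs in 4 cells in all, and its highest cell had 417 CPM. Its free-RNA background of Cym was low too, at 0.206 CPM in control immune-gated cells.

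Markers of the trunk and ducts were higher in the members than in the other epithelial cells. Over the 28 measured genes of the trunk and duct list, 17 were at least 1.5-fold higher in members than in the other epithelial cells and 1 was at least 1.5-fold lower, with a median log2 ratio of 0.71 against 0.08 over all genes. Of all 11725 genes measured, 20.1% were that much higher. The rule bears on this, since the reference holds the acinar-gated and endocrine-gated cells that it kept out of the members. Sox9, the trunk transcription factor, was at 170 CPM in members against 76.2 in the other epithelial cells, and Krt18 at 2517 against 1166. Genes of the acinar list were at least 1.5-fold lower in 27 of 29 and those of the endocrine hormone list in 22 of 23, against 15% of all genes, but the rule leads to this, since it kept Cpa1-high and endocrine-high cells out of the members and the reference holds them. Against the Cym-low duct-like cells, which meet the same limits, 12 of 26 acinar and 8 of 18 hormone genes were that much lower (14.6% of all genes). There 0 acinar and 2 hormone genes were at least 1.5-fold higher (14.4%). Against the narrower Spp1-high Cym-low group 0 of 19 and 0 of 14 were lower (8.7%), and 1 and 3 were higher (10.9%). Those 3 were Ttr, Chga (50.5 CPM, with 33.7 in immune-gated cells) and Gcg (26.2, with 22.7). Of the 28 trunk and duct genes, 13 were at least 1.5-fold higher than in the Cym-low duct-like cells (14.4% of all genes) and 0 lower. Against the Spp1-high Cym-low group 3 were higher (10.9% of all genes) and 3 lower. The acinar genes' summed level in members, 7894 CPM, was close to the 7458 CPM of immune-gated cells. The leukocyte list summed to 1355 CPM in members against 23714 in immune-gated cells. Of the 50, 43 had Spp1 at 1000 CPM or more, all had Krt18 at 500 or more, and 1 had Col1a1 and Col3a1 together at 1000 or more.

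Against the other epithelial cells, 160 of 8750 genes were at least 2-fold higher in members (1.83%) and 489 at least 2-fold lower (5.59%). After Cym, the largest was Ddah1, an enzyme that breaks down methylated arginine, at 126 CPM against 19.3 (ratio 6.54, 5.06 to 8.47). Gas6, a ligand of the TAM receptor kinases, was at 299 against 76.7, and Spp2 at 135 against 34.6. Wnt7b, a Wnt ligand, was at 72.0 against 16.9, and Tmprss2, a membrane serine protease, at 49.6 against 9.99. Bicc1, an RNA-binding protein of tubular epithelia, was at 331 against 107. Spp1-high Cym-low cells, defined below, were close to members for Bicc1 (295 CPM, ratio 1.12, 0.971 to 1.30) and Wnt7b (55.1 CPM, 1.31, 0.936 to 1.82). Both intervals contain 1. The ratios of Ddah1, Gas6 and Spp2 to that group are given below. Among the lowest were genes of the endocrine and acinar classes, such as Neurog3 (7.48 against 137), Gcg (26.2 against 200) and Ptf1a (23.4 against 140), the last an acinar transcription factor. TMM scaling, which shifts these ratios by -0.18 on the log2 scale, gave 96 genes higher, and DESeq2 scaling, with a shift of -0.17, gave 98.

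The 144 Cym-low duct-like cells held 41 cells with collagen at 1000 CPM or more, 25 with mesothelial genes and 13 with immune genes. A narrower group was therefore defined after seeing the data, the 65 Cym-low duct-like cells with Spp1 at 1000 CPM or more and Krt18 at 500 or more, named Spp1-high Cym-low cells, 1 of them collagen-high. The same rule gave 28 control Spp1-high cells. Against all Cym-low duct-like cells, 88 of 6527 genes were at least 2-fold higher in members (1.35%) and 300 at least 2-fold lower (4.6%). Without collagen-high cells the lower count was 164.

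Members and Spp1-high Cym-low cells were alike over most genes. Only 32 of 3994 were at least 2-fold higher in members (0.801%) and 29 at least 2-fold lower (0.726%). On the trunk and duct list 3 of 28 genes were at least 1.5-fold higher and 3 lower, with a median log2 ratio of 0.04 (0.03 over all genes). Sox9 was at 170 CPM in members and 156 in Spp1-high Cym-low cells (ratio 1.09, 0.892 to 1.34), Krt19 at 303 and 280 (1.08, 0.929 to 1.26) and the Notch target Hes1 at 598 and 580 (1.03, 0.926 to 1.15). These 3 intervals contain 1, but those of some other genes of the list do not. Krt18 was at 2517 and 2121 CPM (1.19, 1.13 to 1.25), and the claudin gene Cldn3 at 481 and 622 (0.773, 0.691 to 0.864).

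**Figure D2:**
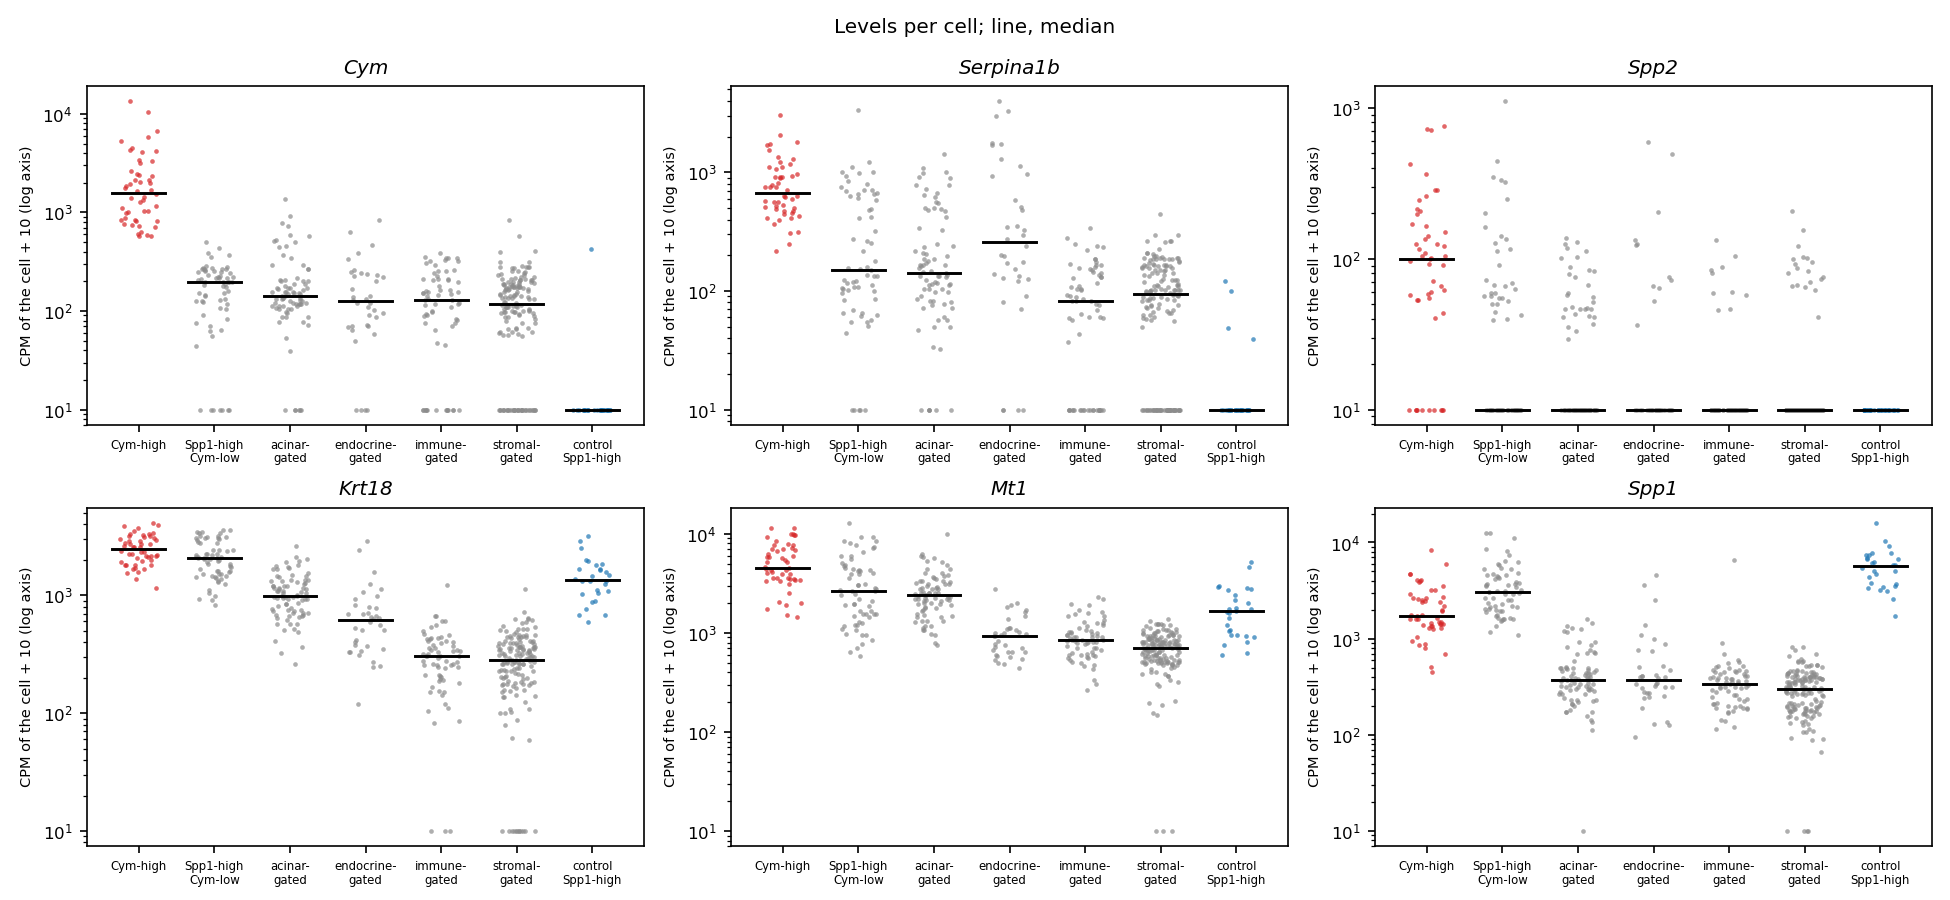
Each panel shows 1 gene in single cells of 7 classes (CPM of the cell plus 10, log axis), with Cym-high cells in red, other knockout classes in grey, control Spp1-high cells in blue and the median as a line. Serpina1b is 209 CPM or more in every Cym-high cell and spread over a wide range in Spp1-high Cym-low cells, while it is at most 111 CPM in control Spp1-high cells.

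Many genes for secreted plasma proteins were higher in members than in Spp1-high Cym-low cells. Of 18 measured genes of the liver plasma protein list, 12 were at least 1.5-fold higher than in Spp1-high Cym-low cells and 0 at least 1.5-fold lower, with a median log2 ratio of 0.68. Over all 9081 genes measured, 10.9% were that much higher and 8.7% that much lower. The list summed to 5995 CPM in members, 3467 in Spp1-high Cym-low cells and 1841 in immune-gated cells. The median endocrine-gated cell had 6454 CPM, against 5232 in the median member. Against the other epithelial cells, 12 of 23 genes were at least 1.5-fold higher and 4 lower (20.1% and 15% of all genes). That reference summed to 5084 CPM. The genes higher than in Spp1-high Cym-low cells included the near-identical Serpina1a to Serpina1e. Trf (73.0 CPM) and Hp (12.2) were others, with 274 and 293 in immune-gated cells.

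Serpina1b was at 813 CPM in members (760 to 869) and 353 in Spp1-high Cym-low cells (ratio 2.30, 2.05 to 2.58). In single members it ran from 209 to 3024 CPM with a median of 659. In Spp1-high Cym-low cells it ran from 0 to 3351 with a median of 140. The classes overlap, but 46 of 50 members exceeded the highest immune-gated cell (328 CPM), as did 23 of 65 Spp1-high Cym-low cells, 21 of 81 acinar-gated cells and 15 of 36 endocrine-gated cells. After thinning, a Serpina1b UMI was found in 50 of 50 members, 66.2% of Spp1-high Cym-low cells and 42.4% of immune-gated cells. Cells above 328 CPM were thus present in each of these epithelial classes.

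The other alpha-1-antitrypsin genes were higher in members as well. Serpina1a was at 333 against 113 CPM (ratio 2.94, 2.42 to 3.58), Serpina1d at 45.8 against 17.4 (2.64, 1.58 to 4.54), Serpina1e at 232 against 124 (1.87, 1.53 to 2.30) and Serpina1c at 991 against 626 (1.58, 1.44 to 1.74). These are near-identical paralogs clustered on chromosome 12, so reads can be assigned to the wrong copy and the split between them is uncertain. Endocrine-gated cells had as much or more of some of them, with Serpina1c at 1430 and Serpina1e at 598 CPM.

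Afp was the plasma protein gene with the largest ratio among those with at least 50 UMIs, at 150 CPM in members (127 to 175) and 36.2 in Spp1-high Cym-low cells (ratio 4.13, 2.97 to 5.83). It was uneven, since the 5 richest cells held 55.6% of its UMIs and the median cell had 72.7 CPM. Ttr was at 1660 against 871 CPM (1.91, 1.77 to 2.05), although endocrine-gated cells had 3367. Spp2 was at 135 against 74.0 (1.82, 1.4 to 2.38), and 17 of 50 members exceeded the highest immune-gated cell, as did 10 of 65 Spp1-high Cym-low cells. Cfi, complement factor I, which the list does not hold, was at 204 against 86.1 (2.37, 1.88 to 3). Serpinf2, from 25 UMIs in members, was at 23.4 against 6.80 CPM (3.44, 1.55 to 8.38). Serpina6 was at 736 against 507 (1.45, 1.31 to 1.61) and Rbp4 at 124 against 86.1 (1.45, 1.12 to 1.87). Of the 18 measured genes of the list, 0 were at least 1.5-fold lower. Some were at like levels or hardly detected. Ambp, the precursor of alpha-1-microglobulin, was at 477 against 468 CPM (1.02, 0.904 to 1.15), Alb (albumin) had 2 UMIs in all 50 members, and Ahsg and Fga had none.

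**Figure D3:**
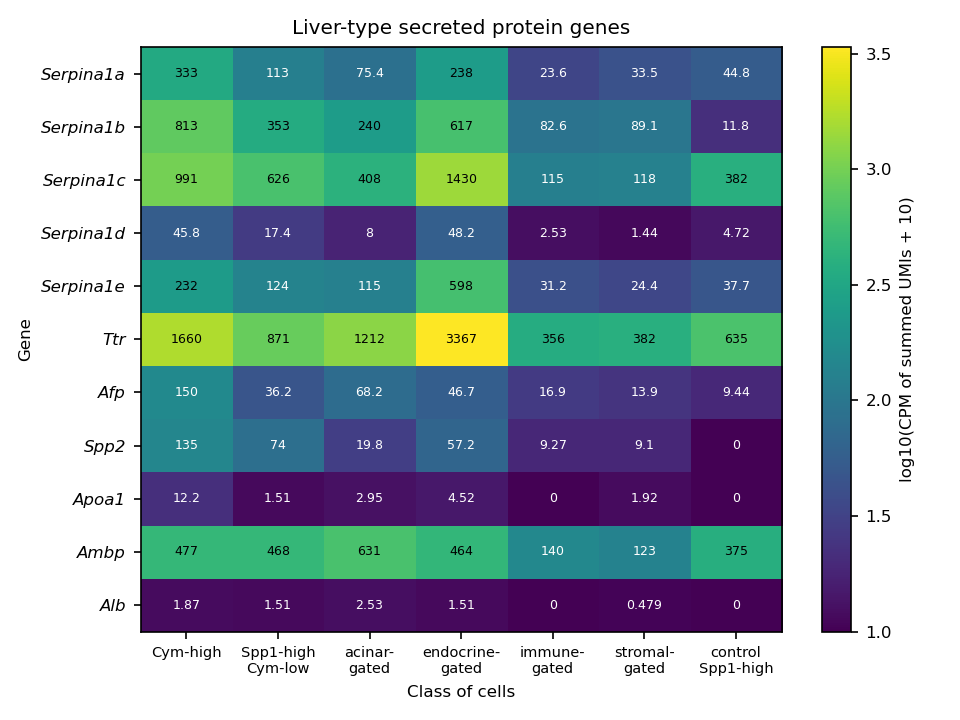
Rows are genes for plasma proteins and columns are classes of cells, each tile holds the level in CPM of summed UMIs, and its colour is log10 of that level plus 10. Of the classes shown, Cym-high cells have the highest level of Serpina1a, Serpina1b, Afp, Spp2 and Apoa1, while endocrine-gated cells have the highest Serpina1c, Serpina1e and Ttr and Alb is under 3 CPM in all classes shown.

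Metallothioneins were also higher. Mt1 was at 5525 CPM in members against 3271 in Spp1-high Cym-low cells (ratio 1.69, 1.62 to 1.76) and Mt2 at 4226 against 2540 (1.66, 1.59 to 1.74). Mt1 in single members ran from 1424 to 11468 CPM (median 4558) and in Spp1-high Cym-low cells from 570 to 12893 (median 2637), so the ranges overlap. Immune-gated cells had 924 and 479 CPM. The zinc exporter Slc30a1 was at 13.1 against 6.80 (1.93, 0.777 to 5.05) and the metal-sensing factor Mtf1 at 24.3 against 24.2.

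Several further genes with metabolic or signalling roles stood higher in members. Ddah1 was at 126 against 39.3 CPM (ratio 3.22, 2.32 to 4.52), Gas6 at 299 against 112 (2.68, 2.20 to 3.28) and Ass1, argininosuccinate synthase, at 123 against 50.6 (2.42, 1.79 to 3.3), although acinar-gated cells had 232. Gas6 was at 128 CPM in immune-gated cells, 116 in stromal-gated cells and 76.7 in the other epithelial cells. Since those epithelial cells were below the immune-gated level, that level cannot be read as the free-RNA background of Gas6. Ghr, the growth hormone receptor, was at 53.3 against 19.6 (2.72, 1.68 to 4.5), with 117 in endocrine-gated cells, and the claudin gene Cldn2 at 31.8 against 7.55 (4.21, 2.03 to 9.56), the latter in 14 members only. All 15 genes named as highest in this comparison were at least 2-fold over the immune-gated level. Stromal-gated cells, however, had more Ghr than members (94.4 CPM) and more Spats2l (115 against 56.1).

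**Figure D4:**
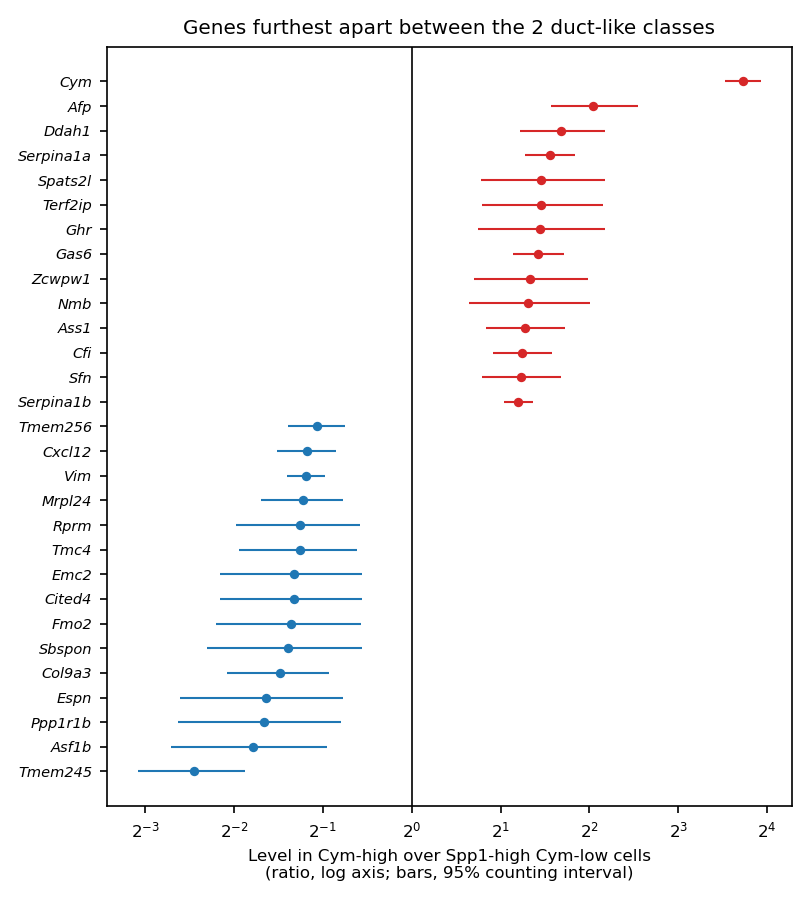
Ratio of the level in Cym-high cells to that in Spp1-high Cym-low cells (log axis, bars are 95% counting intervals) for genes furthest apart in each direction. Cym stands at 13.2 and the others between 0.183 (Tmem245) and 4.13 (Afp).

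The trunk and duct list held genes on both sides, 3 of 28 at least 1.5-fold higher and 3 lower. These counts are near the 10.9% and 8.7% over all genes. Car2, a carbonic anhydrase, was at 18.7 CPM in members against 5.29 in Spp1-high Cym-low cells (ratio 3.54, 1.44 to 9.91), with 27.0 in immune-gated cells. Slc4a4, a bicarbonate transporter, was at 20.6 against 6.04 (3.41, 1.46 to 8.85) and Glis3 at 15 against 9.82 (1.52, 0.688 to 3.45). Krt7 fell just short of the 1.5-fold limit, at 457 against 305 (1.499, 1.31 to 1.71). The 3 lower genes of the list were Spp1, Pdx1 and Nkx6-1. Spp1 was at 2300 CPM in members and 3542 in Spp1-high Cym-low cells (ratio 0.649, 0.618 to 0.682), although the latter were chosen for Spp1 and members were not. With the 43 members that met the same Spp1 and Krt18 limits, the log2 ratio was -0.48 in place of -0.62. Pdx1, the factor that marks the whole early pancreas, was at 25.3 against 49.8 (0.507, 0.311 to 0.804), from 27 UMIs in members. Nkx6-1 was at 41.2 against 70.2 (0.586, 0.400 to 0.848) and Nkx2-2 at 24.3 against 40.8 (0.596, 0.358 to 0.969). Vim, an intermediate filament gene, was at 224 against 509 (0.439, 0.377 to 0.510) and the chemokine gene Cxcl12 at 97.3 against 220 (0.443, 0.350 to 0.556). Immune-gated and stromal-gated cells had 717 and 758 CPM of Vim. Tmem245 had the lowest ratio, but 1 cell held 150 of the 190 UMIs of the Spp1-high Cym-low class, and without it that class was at 30.7 CPM against 26.2 in members.

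Other transcription factors went both ways. Over the 42 measured genes of the pancreatic transcription factor list, 6 were at least 1.5-fold higher, 6 lower, and the median log2 ratio was 0.04, near the 10.9% higher and 8.7% lower over all genes. Foxa3, a forkhead factor of endoderm and liver, was at 117 against 62.7 (1.87, 1.4 to 2.49), Onecut2 at 46.8 against 27.2 (1.72, 1.10 to 2.72) and Klf5 at 29.0 against 13.6 (2.13, 1.16 to 4.05). Klf6 was at 154 against 261 (0.591, 0.488 to 0.713), with 271 in immune-gated cells. Hnf4a, the liver and gut nuclear receptor, was at 20.6 against 23.4 (0.879, 0.485 to 1.57). On the Hippo-YAP target list 6 of 18 genes were at least 1.5-fold higher and 1 lower, against the same 10.9% and 8.7%, and Ccn1 was the lower one (496 against 755 CPM).

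Other genes of the stomach list were undetected or low. Of 27 stomach genes, 15 had no UMI in any member, among them Sox2, Gkn1, Gkn2, Tff1, Muc5ac and Atp4b. Of all 27998 genes, 13666 had no UMI in any member, so the count of undetected stomach genes is near the share over all genes. Beside Cym and Onecut2, which is on the list as well, the best detected were Barx1 (19.6 CPM, with 202 in stromal-gated cells), Atp4a (16.8) and Tff2 (11.2). Of 29 intestinal genes, 14 were at 0, Cdx2 among them, which is again near that share. Vil1 was at 18.7 against 6.04 CPM (3.10, 1.31 to 8.13) and Cdh17 at 10.3 against 2.27, from 11 UMIs.

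Lists for general cell states are read against the 10.9% of all genes that were at least 1.5-fold higher and the 8.7% that were lower. Mitosis genes were at least 1.5-fold higher in 0 of 40 and lower in 5, replication genes higher in 1 of 36 and lower in 3, and unfolded protein response genes higher in 0 of 26 and lower in 3. Integrated stress response genes were higher in 2 of 22 and lower in 4, immediate early and heat shock genes higher in 1 of 30 and lower in 5, and glycolysis and hypoxia genes higher in 1 of 26 and lower in 4. The median log2 ratio of mitochondrially encoded genes was 0.30, alongside the higher mitochondrial share of the members, and that of ribosomal protein genes was -0.14. The part of RNA quality in these values was not tested.

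**Figure D5:**
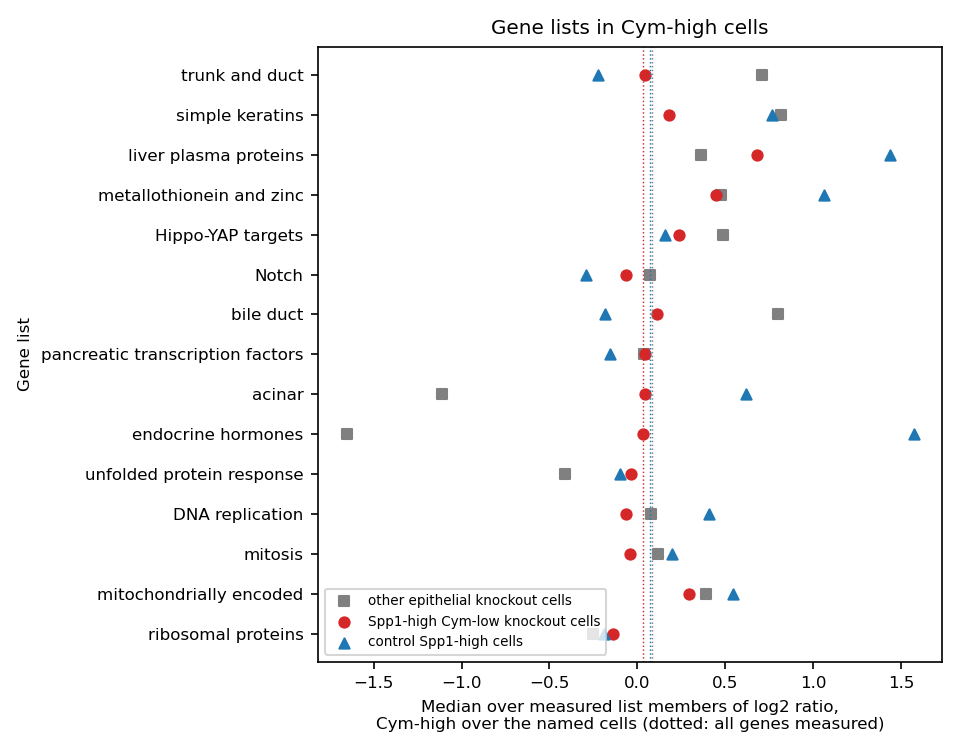
Median log2 ratio of each gene list (Cym-high cells over other epithelial cells, grey squares, over Spp1-high Cym-low cells, red circles, and over control Spp1-high cells, blue triangles), with dotted lines for the median of all genes. Against Spp1-high Cym-low cells the liver plasma protein list stands highest at 0.68 and the trunk and duct list at 0.04.

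Ogt itself was at 29.9 CPM in members (20.5 to 42.3, 32 UMIs), 45.3 in Spp1-high Cym-low cells (ratio 0.661, 0.416 to 1.03) and 80.2 in control Spp1-high cells (0.373, 0.223 to 0.623). Immune-gated and stromal-gated knockout cells had 43.0 and 102 CPM. The excised part of the gene was not resolved by these counts, so the residual UMIs do not tell deleted from intact transcripts. Mgea5, the gene of the enzyme that removes O-GlcNAc, was at 15.9 CPM against 24.9 in Spp1-high Cym-low cells (0.638, 0.333 to 1.18). Over the 16 measured genes of O-GlcNAc cycling and hexosamine synthesis, 2 were at least 1.5-fold higher and 2 lower than in Spp1-high Cym-low cells, near the 10.9% and 8.7% over all genes.

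Against the 28 control Spp1-high cells, 281 of 3317 genes were at least 2-fold higher in members (8.47%) and 81 lower (2.44%). Of the 15 genes named as highest, 8 were less than 2-fold over the level in knockout immune-gated cells, such as Col1a2, Col3a1 and Pyy, and those named as lowest included macrophage genes such as Pf4 and C1qc, with leukocyte genes summing to 7136 CPM in the control cells. Their part in these counts was not tested. In all, 19 of the 28 control Spp1-high cells had 1000 CPM or more of the immune gate genes.

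Most measured plasma protein genes were higher than in the control Spp1-high cells too. Of 17 measured genes of the liver plasma protein list, 14 were at least 1.5-fold higher and 2 lower, against 23.3% and 14.1% of all genes. The 2 lower genes were Trf (73.0 against 137 CPM) and Hp (12.2 against 35.4). Serpina1b was at 11.8 CPM in control Spp1-high cells (5 UMIs), against 813 in members (ratio 68.9, 29.4 to 213). It was at 0 in control endocrine-gated and 21.4 in control acinar-gated cells, where the knockout classes had 617 and 240. Spp2 had no UMI in control Spp1-high cells, which makes it at least 19-fold higher in members, with 3 counts in place of 0. Afp was at 150 against 9.44 (15.9, 6.08 to 58.9), Serpina1a at 333 against 44.8 (7.43, 4.69 to 12.5) and Ttr at 1660 against 635 (2.62, 2.30 to 2.99). Mt1 was at 5525 against 1802 (3.07, 2.84 to 3.31). In the other direction Spp1 was at 2300 against 5602 (0.411, 0.388 to 0.435), Sox9 at 170 against 302 (0.564, 0.447 to 0.712) and Nkx6-1 at 41.2 against 118 (0.349, 0.227 to 0.534). For Spp1, Nkx6-1, Serpina1b and Mt1, Spp1-high Cym-low cells of the knockout lay between the members and the control cells, but Sox9 (170, 156 and 302 CPM) and Pdx1 (25.3, 49.8 and 49.5) did not have that order.

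Against all 66 control duct-like cells, 370 of 3652 genes were at least 2-fold higher (10.1%) and 299 lower (8.19%). There 52 of the 66 cells carried 1000 CPM or more of immune gate genes.

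Across the 50 cells the highest Spearman correlations with Cym out of 4222 genes were those of Cib1 (0.46), Cfi (0.45) and Ttr (0.43). The lowest were larger in size, those of Ppan (-0.52), a ribosome biogenesis factor, the ribosomal protein gene Rps6 (-0.51), Mrpl54 (-0.49), Mindy1 (-0.47) and Abhd17c (-0.47). Among the markers, Mt1 was at 0.27, Serpina1b at 0.15, Spp2 at 0.01 and Krt18 at -0.14. The correlation with total UMIs was -0.01. The cells share 1 library and the values are descriptions of sparse counts. How large the extremes of 4222 unrelated genes would be over 50 cells was not tested.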

How the data were processed

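Single-cell RNA from E15.5 pancreas was deposited as 1 table of whole-number UMI counts per gene and cell per genotype. The authors used Cell Ranger 2.0.0, Seurat 2.0 and DESeq2 1.14.1 with mm10, according to the submitters' processing notes, and the role of each is not given in the sources used here. The 27998 gene identifiers were read with GENCODE M21 symbols, and 27645 matched. The members, gene lists and rules were chosen with earlier results of these data known.

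The limits of 500 genes and 10% mitochondrial UMIs left 561 of 617 knockout and 925 of 941 control barcodes. Among cells with Epcam under 200 CPM, those with Tyrobp, Fcer1g, Coro1a and Laptm5 together at 1000 CPM or more were immune-gated, and of the rest those with Col1a1 and Col3a1 together at 2000 or more were stromal-gated. Doublets were kept in the main values. Scrublet (scanpy 1.11.5) marked 8 knockout and 4 control cells, and at 0.432% of control cells it cannot be relied on there. UMIs were summed over a class and scaled to CPM, with exact Poisson, conditional ratio and binomial intervals. A 2-fold difference needed 50 UMIs in 10 cells of the higher class. List members needed 20 UMIs over both classes and were counted at 1.5-fold, and log2 ratios had 10 CPM added to both sides. Named genes were the markers, the 15 furthest apart in each direction by that log2 ratio, and set members of the gene lists, and others that are named were chosen after their values were seen. On data simulated with counting error for Cym-high against Spp1-high Cym-low cells (9081 genes), the simulated ratio lay inside its interval for 98% of 50 genes set to 0.25, 100% at 0.5, 96.25% of 8881 genes at 1, 98% at 2 and 94% at 4. The draws used the counting error that the intervals assume, so they check the calculation and not coverage under variation among cells. Promoters were taken from a RefSeq table. Alternatives covered the gates, filters, scaling (TMM by edgeR 4.0.16 and median-of-ratios by DESeq2 1.42.0), floors, thinning and subtraction of free RNA. Some items withheld for evaluation are not reported here.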

Additional observations from a re-analysis of the deposited data

How the results depend on the processing

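No paired analysis was possible because the replicate numbers mark repeat runs of 1 library and the columns carry no run, and for the same reason no run could be left out. The number of members ran from 34 (Cym at 1000 CPM or more) to 74 (Cym at 250 or more) over the filters tried. Against Spp1-high Cym-low cells, the log2 ratios of Serpina1b (1.10 to 1.44), Serpina1a (1.23 to 1.87), Afp (1.09 to 2.28), Ttr (0.74 to 1.32), Mt1 (0.63 to 0.97), Spp1 (-0.76 to -0.48), Pdx1 (-0.95 to -0.41) and Nkx6-1 (-0.83 to -0.36) kept their sign in all 24 alternatives. Some of the 24 could not change a sign. The count floors do not enter the ratio, and adding another number of CPM to both sides cannot turn it. A limit of 1000 genes removed no cell of these 2 classes, whose lowest cells had 2569 and 2333 genes. Sox9 changed sign in 1 of 24, and Klf6 and Vim were at 0 in 1 of 24, with the immune-gated level subtracted. The log2 ratio of Tmem245 turned to 1.90 against Spp1-high Cym-low cells and 2.01 against Cym-low duct-like cells with Cym at 250 CPM or more.

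Counts of genes at least 2-fold apart depended on the settings far more than these ratios did, although the count floor bears on the counts only. They are given as higher and lower in members, in the order other epithelial, Cym-low duct-like, control duct-like, Spp1-high Cym-low and control Spp1-high cells. With no count floor, which lets single UMIs make a call, they were 2018 and 3979, 1845 and 3451, 3742 and 2591, 2106 and 2062, and 3845 and 2339. With a floor of 200 UMIs, which tests fewer genes, they were 28 and 145, 13 and 59, 63 and 79, 5 and 3, and 45 and 18. After thinning to 5000 UMIs they were 19 and 235, 16 and 114, 63 and 108, 7 and 8, and 48 and 24. With the immune-gated level subtracted they were 1152 and 1362, 951 and 1158, 1059 and 741, 639 and 650, and 865 and 418.

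Gates moved some of the counts, and the cause was not tested. With Epcam at 100 CPM or more, 881 genes were lower against other epithelial cells, 168 higher and 799 lower against Cym-low duct-like cells, and 597 higher and 782 lower against control duct-like cells. With Epcam at 400 or more these were 317, 48 and 105, and 243 and 178. With Cym at 1000 or more, 81, 41, 233 and 21 genes were higher than in other epithelial, Cym-low duct-like, control duct-like and Spp1-high Cym-low cells. With Cym at 250 or more, 155 were lower than in Cym-low duct-like cells, and 71 higher and 17 lower than in Spp1-high Cym-low cells. With the Cpa1 limit lowered 2-fold, 58 were higher than in Cym-low duct-like cells. TMM and DESeq2 scaling gave 96 and 98 higher against other epithelial cells, since they multiplied those ratios by 0.885 and 0.891. Of the alternatives chosen after seeing the data, members at 1000 CPM Cym or more gave 101 higher against other epithelial and 233 against control duct-like cells, members gated on Spp1 and Krt18 gave 58 higher against Cym-low duct-like cells, and leaving out collagen-high cells gave 164 lower there.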
